A study of Homo sapiens with 18 samples.

Results

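The genes described here are 9 of the 57905 Ensembl genes counted in this series: the metallothioneins MT1E, MT1F, MT1G, MT1M, MT1X, MT2A and MT3, the metal-sensing transcription factor MTF1, and the zinc exporter SLC30A1. They were picked by gene symbol, with earlier results of these data known. BE(2)-m17 is a human neuroblastoma line. The cells of every library, controls included, carried an APP transgene on the pSBbi-Hyg vector, and the compared lines carried in addition pSBbi-Pur with a codon-optimized ABCC1 cDNA (called ABCC1) or pSBbi-Pur without an insert (called Puro). ABCC1 is a membrane pump for organic anions, among them glutathione and its conjugates. The lines were compared in 3 experiments of 3 Puro and 3 ABCC1 libraries each, 18 in all, and each well was plated with 14000000 cells in medium with 10% serum and lysed on day 4 after daily changes of medium. Per the methods of the study the platings were weekly, antibiotics were left out during them, and the repeat experiments used cryopreserved and then newly transfected cells. The paper names the cryopreserved cells apart from the newly transfected ones, so the first and the second experiment may share their selected lines. Each line of an experiment comes from a puromycin selection, so the ABCC1 cDNA and other differences between the selected lines cannot be told apart, and p-values measure the spread between platings of these lines.

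Metallothioneins are small cysteine-rich proteins that bind zinc and copper, and MT1 and MT2 genes are switched on by zinc, cadmium, copper, oxidants and glucocorticoids. MTF1 senses free zinc in the cell, enters the nucleus and binds metal response elements in the promoters of the metallothioneins and of SLC30A1. SLC30A1, also called ZnT1, carries zinc out through the plasma membrane, so its transcript and those of the metallothioneins are common readouts of the zinc that MTF1 senses. MT3 is the form known best from neurons and astrocytes.

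The promoters of 4 of the 9 genes were in the RefSeq table used here (GRCh38.p14), which gives the sequence before each start site. The core letters of the metal response element, TGCACNC, were searched together with TGCGCNC, on both strands, in the 250 bases before the start, and overlapping matches were counted one by one. Of 35116 promoters of this length, 24.8% held at least 1 match. MT2A held 7 matches, a number that 0.0313% of the promoters reached. MT1X held 4, reached by 0.370%. SLC30A1 held 1, and MTF1 held 0. The matches are descriptions of letters and not of binding. The sequences show how the metal response letters are repeated before MT1X and MT2A and stand once before SLC30A1, with the matches in capitals. For MT1X the stretch chr16:56682220-56682423 on the plus strand is given, up to the first transcript start in GENCODE 29. For SLC30A1 it is chr1:211579162-211579411 on the minus strand. A GENCODE 29 transcript of MT2A begins before the whole window, so for MT2A only 3 of its 7 matches are given with 10 bases on either side, 1 for each motif and strand found there, the nearest to the start that leaves those 10 bases within the window, at chr16:56608520-56608546, chr16:56608486-56608512 and chr16:56608435-56608461 on the plus strand.
MT1X: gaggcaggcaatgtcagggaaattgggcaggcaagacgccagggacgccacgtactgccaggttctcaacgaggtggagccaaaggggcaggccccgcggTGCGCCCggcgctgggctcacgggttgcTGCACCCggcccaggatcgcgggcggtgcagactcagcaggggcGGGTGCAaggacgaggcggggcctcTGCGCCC
SLC30A1: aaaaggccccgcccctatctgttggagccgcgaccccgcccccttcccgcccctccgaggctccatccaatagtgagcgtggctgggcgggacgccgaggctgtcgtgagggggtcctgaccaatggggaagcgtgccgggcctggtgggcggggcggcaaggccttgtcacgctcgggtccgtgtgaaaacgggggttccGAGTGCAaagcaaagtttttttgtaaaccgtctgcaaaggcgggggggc
MT2A, bases 54 to 48 before the start within: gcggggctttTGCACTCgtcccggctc
MT2A, bases 88 to 82 before the start within: agcgcggggcGTGTGCAggcagcgccc
MT2A, bases 139 to 133 before the start within: cccggcccagTGCGCGCggccgggtgt

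The libraries of the first experiment held 27433393 to 57937653 assigned read pairs, those of the second 19577853 to 30996228 and those of the third 8866994 to 13332413. Counts on the exogenous ABCC1 sequence were 328102 to 594404, 84990 to 148783 and 51035 to 58631 in the ABCC1 libraries of the 3 experiments, against 0 to 15 in the Puro libraries, so the labels hold. Genes were called at an adjusted p of at most 0.05 in the quasi-likelihood test of edgeR, adjusted by Benjamini-Hochberg across every gene tested, and CPM are counts-per-million values after scaling of the library sizes by the trimmed mean of M values (TMM). The neuroblastoma identity of the cells shows in adrenergic markers such as CHGA and HAND2, at 7038 and 848 CPM in the Puro libraries of the first experiment, while all 8 Schwann or glial markers were at or below 1.60 CPM there and SOX10 was at 0.0107 CPM. The experiments differed in counts on genes that these cells should not use. Over 350 olfactory receptor genes the mean was 0.00514 CPM per kb of exons in Puro and 0.00414 in ABCC1 in the first experiment, 0.584 and 0.306 in the second, and 1.58 and 1.26 in the third. Per the study's methods, the first experiment was prepared with an mRNA kit and the repeat experiments with a total RNA kit. This background was 1.24, 1.91 and 1.26 times as high in Puro as in ABCC1, so it moved with the line. Its Puro and ABCC1 libraries did not overlap in any experiment, so fits that use it as a covariate cannot separate it well from the line. It is given beside the members it touches, and its part in the other low genes named here was not tested.

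SLC30A1 transcripts were higher in ABCC1 than in Puro cells in each of the 3 experiments, by 1.37, 1.58 and 1.84 times. MT2A was higher by 1.33 times in the first experiment, where the groups overlapped. It stood at 1.96 times in the second, where the groups did not overlap and the test missed the threshold, and at 1.01 times in the third, with an interval that also held the difference of the first. MTF1 passed the test in no experiment. None of the other 6 metallothioneins passed the test. Of these, MT1X and MT1G stood well over the background in the first experiment, and the others were at 0 or at most 4.90 times the background. Of the members, 4, 9 and 9 passed the filter on low counts and were tested, and 2, 1 and 1 were called, all higher in ABCC1. Of all genes tested, 17.9%, 1.25% and 2.03% were called higher in ABCC1 in the 3 experiments, 19.7%, 0.458% and 0.767% lower, and 37.6%, 1.70% and 2.80% in either direction.

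SLC30A1 (ENSG00000170385) lies on chromosome 1, at bases 211744910 to 211752084 of the minus strand in GRCh37, with 5474 bases of exons. Puro cells of the first experiment had 3866, 2143 and 2468 counts and ABCC1 cells 6243, 3678 and 6613. Scaled for depth, these were 89.6, 79.3 and 78.9 CPM in Puro against 111, 115 and 115 CPM in ABCC1. Every ABCC1 library was above every Puro library, and the log2 fold change was 0.46 ± 0.05 (SE, n = 3 per line; 95% interval 0.34 to 0.58; edgeR adjusted p = 7.85e-05). In these bulk libraries, more cells with the transcript and more transcript per cell cannot be told apart.

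In the second experiment SLC30A1 counts were 1194, 1851 and 1537 in Puro and 2636, 2204 and 3013 in ABCC1, or 53.1, 62.3 and 74.5 CPM against 102, 102 and 98.0 CPM. The groups again did not overlap, the Puro libraries spreading more widely than the ABCC1 libraries. Its log2 fold change was 0.66 ± 0.17 (SE, n = 3 per line; 95% interval 0.32 to 1.01; edgeR adjusted p = 0.0440). This call was close to the threshold. With any of the 6 libraries left out the log2 fold change lay between 0.58 and 0.81 and the edgeR adjusted p between 0.0565 and 0.154, so the call was lost without any 1 of the 6. It was also lost with the replicate number as a block (0.68, edgeR adjusted p = 0.0540). With the olfactory receptor background as a covariate it was 0.62 with an edgeR adjusted p of 0.654.

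In the third experiment SLC30A1 counts were 353, 471 and 236 in Puro and 624, 755 and 789 in ABCC1, or 32.0, 42.7 and 24.5 CPM against 53.2, 64.9 and 65.1 CPM. The lowest ABCC1 library was above the highest Puro library. Its log2 fold change was 0.88 ± 0.17 (SE, n = 3 per line; 95% interval 0.54 to 1.21; edgeR adjusted p = 0.000268). The call held without each library in turn, and was lost with the background as a covariate, where the log2 fold change was 0.37 and the edgeR adjusted p 0.679. The background was 1.48 to 1.64 CPM per kb in Puro and 1.15 to 1.43 in ABCC1 in the third experiment. In the second it was 0.491 to 0.667 and 0.141 to 0.434. Without overlap between the lines, the covariate fit could hardly tell background and line apart. Subtracting the background of each library from its level per kb, a treatment chosen after seeing the data and given with no test, moved the log2 ratio of the means the other way, to 1.15 in the third experiment and 0.72 in the second. The exact two-sided permutation test over libraries gave p = 0.1 in each experiment, the smallest it allows for 3 against 3.

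The level of SLC30A1 itself was well over the background in the first and the second experiment and less so in the third. At 15.1 ± 1.11 and 20.8 ± 0.382 CPM per kb in Puro and ABCC1 (mean ± SD, n = 3), it stood 2933 and 5014 times over the olfactory receptor mean in the first experiment. In the second experiment it was at 11.6 ± 1.97 and 18.4 ± 0.398 CPM per kb, 19.8 and 60.0 times the background. In the third it was at 6.05 ± 1.67 and 11.2 ± 1.24 CPM per kb, 3.83 and 8.89 times the background, and 2.73 times in the lowest Puro library. MT4, which had 0 counts in the first experiment, stood at 5.32 and 6.44 times there, above SLC30A1 in Puro and below it in ABCC1. These multiples are per kb and depend on exon length, and in CPM MT4 was at 2.47 and 2.38 there, against 33.1 and 61.1 for SLC30A1. The background was the lower in ABCC1 each time, while SLC30A1 was the higher. No 50-base word of its transcripts occurred in another gene. Of the 16689 genes tested in all 3 experiments, 203 (1.22%) were called higher in ABCC1 in each of them, SLC30A1 among them, and 1117 (6.69%) had all ABCC1 libraries above all Puro libraries in each.

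The size of the SLC30A1 difference was compared between the experiments in a joint fit of the 18 libraries. It was 0.12 higher on the log2 scale in the second experiment than in the first and 0.40 higher in the third, and the interaction of line and experiment was not called (edgeR adjusted p = 0.831). Among all genes tested this interaction was called for 1.19%. The median log2 fold change of all genes tested was 0.01, -0.19 and -0.09 in the 3 experiments, and scaling by relative log expression (RLE) in place of TMM raised the median log2 fold change of the second experiment by 0.11.

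**Figure D1:**
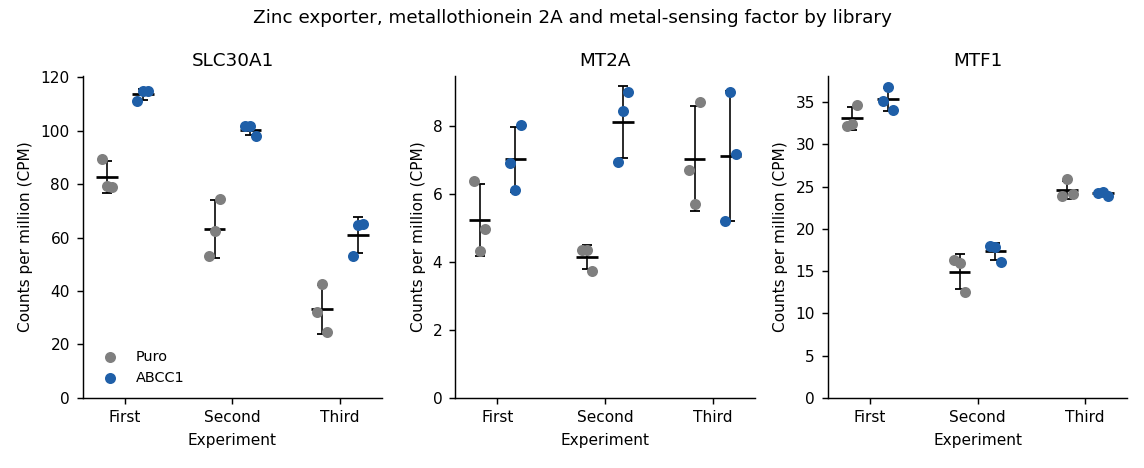
CPM of SLC30A1, MT2A and MTF1 in each of the 18 libraries, by experiment and line, with the mean (bar) and SD (whiskers) of 3 libraries; the vertical axes start at 0 and differ between genes. The ABCC1 libraries of SLC30A1 lie above the Puro libraries in all 3 experiments, those of MT2A only in the second, and those of MTF1 in none.

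MT2A (ENSG00000125148) lies in the metallothionein cluster of chromosome 16, at bases 56642111 to 56643409 of the plus strand in GRCh37, and had the highest mean of the 7 metallothioneins, in CPM and per kb, in every group. Counts in the first experiment were 276, 117 and 156 in Puro and 388, 196 and 463 in ABCC1, or 6.39, 4.33 and 4.99 CPM against 6.92, 6.12 and 8.04 CPM. One Puro library lay above the lowest ABCC1 library. On the log2 scale the difference was 0.41 ± 0.14 (SE, n = 3 per line; 95% interval 0.09 to 0.73; edgeR adjusted p = 0.0445; exact permutation p = 0.2). The call was lost without Puro replicate 2 (0.31, edgeR adjusted p = 0.156), Puro replicate 3 (0.38, adjusted p = 0.144), ABCC1 replicate 1 (0.43, adjusted p = 0.0694) or ABCC1 replicate 3 (0.30, adjusted p = 0.0653).

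In the second experiment MT2A counts were 98, 129 and 77 in Puro and 180, 183 and 277 in ABCC1, or 4.36, 4.34 and 3.73 CPM against 6.94, 8.45 and 9.0 CPM. The groups did not overlap. The log2 fold change of 0.97 ± 0.27 (SE, n = 3 per line; 95% interval 0.42 to 1.52) missed the threshold (edgeR adjusted p = 0.0596; exact permutation p = 0.1). It passed in 5 of 13 alternatives, among them DESeq2 at 1.07 with an adjusted p of 0.00498, RLE scaling at 1.07 with an edgeR adjusted p of 0.0235, and the fit without ABCC1 replicate 1 at 1.08 with an edgeR adjusted p of 0.0406. In the third experiment the counts were 74, 63 and 84 in Puro and 61, 105 and 87 in ABCC1, and the groups overlapped. The log2 fold change there was 0.02 ± 0.26 (SE, n = 3 per line; 95% interval -0.49 to 0.53; edgeR adjusted p = 0.984).

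The MT2A difference was 0.46 higher on the log2 scale in the second experiment than in the first and 0.42 lower in the third than in the first, and the interaction of line and experiment was not called (edgeR adjusted p = 0.504). MT2A stood 784 and 1306 times over the olfactory receptor mean in Puro and ABCC1 in the first experiment, 5.46 and 20.5 times in the second, and 3.44 and 4.38 times in the third. MT4 stood higher than MT2A in both lines of the third and, at 6.19 times, in Puro of the second. In CPM, where exon length does not enter, MT4 was below MT2A in each of these groups. Background falling evenly over exons would give 15.9 to 19.5 of the MT2A counts per Puro library and 4.76 to 17.4 per ABCC1 library in the second experiment, and 17.9 to 23.2 per library in the third.

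MTF1 (ENSG00000188786, chromosome 1, bases 38275239 to 38325292 of the minus strand in GRCh37) was at 33.1 ± 1.37 CPM in Puro and 35.3 ± 1.38 in ABCC1 in the first experiment (mean ± SD, n = 3). It was at 14.9 ± 2.09 and 17.3 ± 1.04 CPM in the second, and at 24.6 ± 1.08 and 24.2 ± 0.236 in the third. The groups overlapped in every experiment. The log2 fold changes were 0.09, 0.21 and -0.03, with 95% intervals of -0.03 to 0.21, -0.14 to 0.56 and -0.35 to 0.30 and edgeR adjusted p of 0.211, 0.481 and 0.960, and the direction in the third turned with the scaling (0.04 with RLE). In the third experiment its level of 3.07 and 3.02 CPM per kb lay below the 95th percentile of the olfactory receptor genes, 3.67 in Puro and 3.05 in ABCC1. It stood 1.94 and 2.40 times over the mean background there, against 802 and 1063 times in the first experiment.

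**Figure D2:**
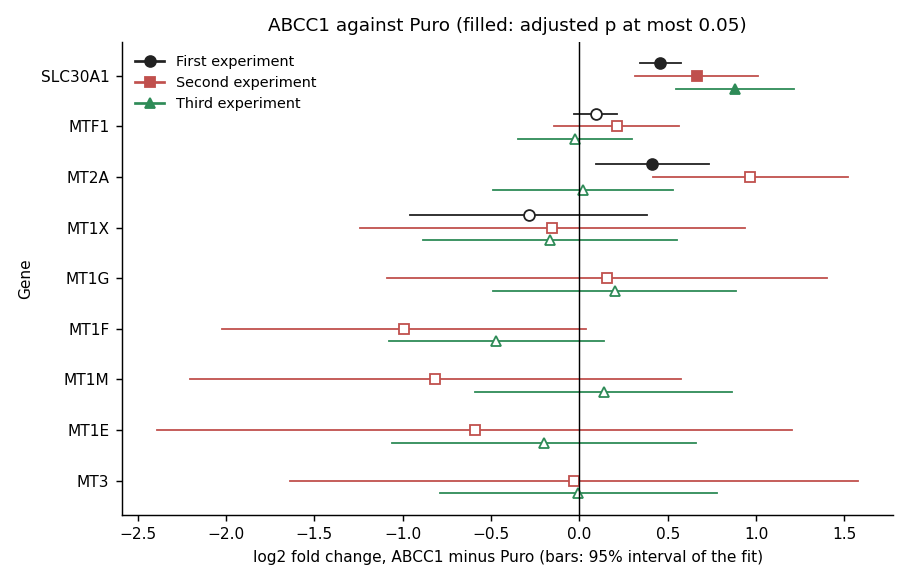
The log2 fold change of ABCC1 against Puro for each gene in each experiment where it was tested, with the 95% interval of the edgeR fit; filled symbols mark an adjusted p of at most 0.05. SLC30A1 is called in all 3 experiments and MT2A in the first, and every other interval includes 0 except that of MT2A in the second.

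Most of the remaining metallothioneins were almost silent where the background was lowest. Where libraries were deepest, in the first experiment, MT1E, MT1M and MT3 had 0 counts in each of the 6 libraries, which allows up to 0.0122 CPM over these libraries together (3 counts, for counting error only). MT1F, a general MT1 isoform like MT1E and MT1M, had 0, 0 and 1 counts in Puro and 1, 2 and 2 in ABCC1. MT1G had 7, 2 and 6 counts in Puro and 11, 7 and 17 in ABCC1, or 0.143 ± 0.0613 against 0.237 ± 0.0520 CPM (mean ± SD, n = 3). It stood 37.0 and 76.2 times over the background. Its ABCC1 libraries were above its Puro libraries in CPM, at counts too low to pass the filter (exact permutation p = 0.1).

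MT1X was the second most abundant metallothionein of the first experiment. It had 44, 39 and 51 counts in Puro and 51, 21 and 90 in ABCC1, or 1.36 ± 0.313 against 1.04 ± 0.468 CPM (mean ± SD, n = 3), 150 and 142 times the background. The groups overlapped, and the log2 fold change was -0.29 ± 0.30 (SE; edgeR adjusted p = 0.488). Without ABCC1 replicate 3 it was -0.71 with an edgeR adjusted p of 0.0225, so a call lower in ABCC1 depends on leaving out that library. An unnamed gene on the same strand, ENSG00000259827, shares 18.1% of the exon bases of MT1X and had 0 counts in every library.

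Most of the cluster was silent in the first experiment. Of 15 metallothionein genes and pseudogenes with rows between bases 56598961 and 56718108 of chromosome 16 (GRCh37), 10 had 0 counts in each library of the first experiment and 12 had at most 3 counts in each. MT4, a metallothionein of squamous epithelia, had 0 counts in every library of the first experiment, 13 to 33 in the second and 20 to 36 in the third. MT1H, MT1B and the pseudogenes MT1L, MT1JP and MT1DP followed the same course, from 0 counts to at most 36 per library. MT1A had 0 to 2 counts in the first experiment, 1 to 9 in the second and 7 to 24 in the third, and MT1HL1, which lies outside the cluster, had 0 to 1, 3 to 38 and 25 to 53.

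In the second and the third experiment all 6 of these metallothioneins were tested, and edgeR and DESeq2 each called 0, with 0 at an unadjusted edgeR p under 0.05. MT1F had 63, 88 and 48 counts in Puro and 14, 31 and 64 in ABCC1 in the second experiment. In CPM its ABCC1 libraries were all below its Puro libraries, and the log2 fold change was -0.99 ± 0.50 (SE, n = 3 per line; edgeR adjusted p = 0.250; exact permutation p = 0.1). The background of the same libraries was also lower in ABCC1, with 23.1 to 28.3 counts per Puro library and 6.93 to 25.2 per ABCC1 library over exons as long as those of MT1F. With the background as a covariate the MT1F log2 fold change was -0.084 (edgeR adjusted p = 0.994), and with the background subtracted it was -1.05.

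MT3, at 6 to 29 counts per library in the second experiment and 22 to 35 in the third, was at 0.576 and 1.08 times the background in Puro and ABCC1 in the second experiment, and at 0.867 and 1.09 times in the third. It could not be told from background in any group. MT1E was at 1.06 to 1.46 times the background in these 4 groups. Of these 6, MT1G was farthest above it, at 3.44 and 7.31 times in the second experiment and 2.69 and 3.90 in the third, over the 95th percentile of the olfactory receptor genes in each of these groups. This does not set MT1G apart from genes that had at most 1 count per library in the first experiment, since MT4 stood at 6.19 and 6.59 times in the second and 5.32 and 6.44 in the third, and MT1HL1 at 6.44 and 6.56 and at 7.37 and 6.80. Its counts were 36, 22 and 45 in Puro and 10, 57 and 62 in ABCC1 in the second experiment, and 39, 31 and 31 against 59, 36 and 35 in the third. The groups overlapped in both, with log2 fold changes of 0.16 and 0.20 and edgeR adjusted p of 0.900 and 0.842. With the background as a covariate they were 1.72 and 0.97, with edgeR adjusted p of 0.655 and 0.634.

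MT1M had 16 to 40 counts in Puro and 10 to 23 in ABCC1 in the second experiment, and 20 to 38 against 25 to 46 in the third. Its log2 fold changes were -0.81 and 0.14, with 95% intervals of -2.20 to 0.57 and -0.59 to 0.87. It was at 2.05 and 2.20 times the background in Puro and ABCC1 in the second experiment and at 1.93 and 2.69 times in the third. MT1X had 37, 67 and 17 counts in Puro and 39, 32 and 40 in ABCC1 in the second experiment, and 54, 14 and 45 against 38, 36 and 40 in the third. Its Puro libraries spread on both sides of the ABCC1 libraries, and the log2 fold changes were -0.15 and -0.17 with edgeR adjusted p of 0.886 and 0.876. It was at 1.52 and 2.63 times the background in the second experiment and at 1.29 and 1.44 times in the third. The SLC30A1 change of 0.66 in the second experiment lay within the 95% intervals of MT1E, MT1G, MT1X and MT3, which reached 1.20, 1.40, 0.93 and 1.58, and above those of MT1F and MT1M, which ended at 0.04 and 0.57. In the third experiment the SLC30A1 change of 0.88 lay within the interval of MT1G only, and the others ended between 0.14 and 0.87. Background counts are part of each of these values.

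**Figure D3:**
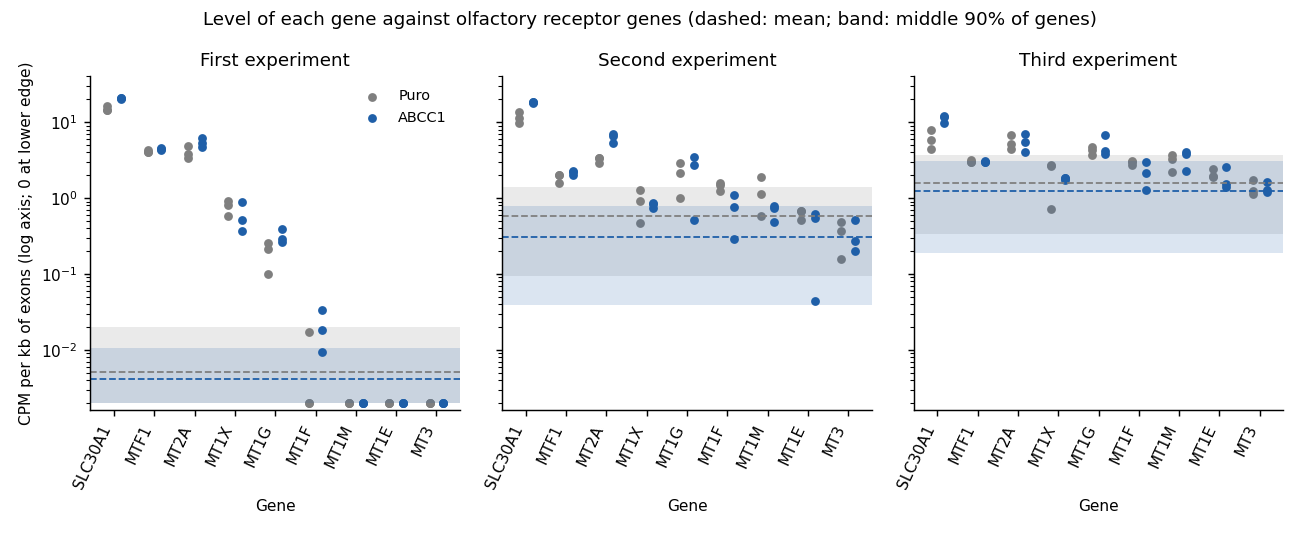
Level of each gene in CPM per kb of exons on a log axis, 1 point per library, with the mean (dashed line) and the range from the 5th to the 95th percentile (band) of 350 olfactory receptor genes in the same line; libraries at 0 are drawn at the lower edge. SLC30A1 and MT2A lie above the bands in every experiment, and MT3 and MT1E lie within them or at 0.

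Per kb, SLC30A1 was the highest member in every group and MT3 was last or level with the last. MT2A and MTF1 came next in the first experiment, their library ranges overlapping in Puro (4.03 and 4.13 CPM per kb) and not in ABCC1 (5.41 and 4.40). MT1X and MT1G followed, with ranges that overlapped in ABCC1 only. In the third experiment the ranges of SLC30A1 and MT2A overlapped in Puro, at 6.05 and 5.43 CPM per kb, and no longer overlapped in ABCC1, at 11.2 and 5.49. The lengths count every annotated exon of a gene, such as 1299 bases for MT2A, 1837 for MT3 and 5474 for SLC30A1. This order depends on those lengths, and transcripts that use fewer exons would give another.

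MT1 and MT2 genes are close copies, and read pairs that match several genes were not counted. Of the 50-base words in the GENCODE 29 transcripts of MT1X, 3.64% occur in another metallothionein gene or pseudogene, against 16.5% for MT1G, 9.87% for MT1M, 7.10% for MT1E, 3.02% for MT2A and 1.22% for MT1F. Counting the overlapping gene on its strand, 18.3% of the MT1X words occur elsewhere. A read placed on the wrong one of the genes summed below leaves their sum as it was. Pairs left uncounted are missing from the sum, and reads exchanged with copies outside it, such as MT1JP and MT1H, change it. Summed over MT1E, MT1F, MT1G, MT1M, MT1X and MT2A, the level was 6.75 ± 0.868 CPM in Puro and 8.34 ± 1.46 in ABCC1 in the first experiment (mean ± SD, n = 3). It was 11.7 ± 1.12 and 13.6 ± 2.68 CPM in the second, and 24.5 ± 3.01 and 23.2 ± 1.02 in the third. Both lines spread over common values in each experiment, as the plot of these counts by gene shows.

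The make-up of the sum also differed. MT2A gave 72.9% to 84.4% of it in Puro and 80.9% to 86.7% in ABCC1 in the first experiment. In the second it gave 33.8% to 37.6% in Puro and 57.0% to 65.2% in ABCC1, where the shares did not overlap. In the third it gave 25.3% to 33.6% and 21.4% to 40.2%. Background falling evenly over exons would give 32.8% to 42.9% of the summed counts in Puro and 10.2% to 21.2% in ABCC1 in the second experiment, 47.0% to 54.1% and 38.9% to 45.4% in the third, and at most 0.741% in the first. This background differed between the lines with the shares, and its part in them was not tested.

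**Figure D4:**
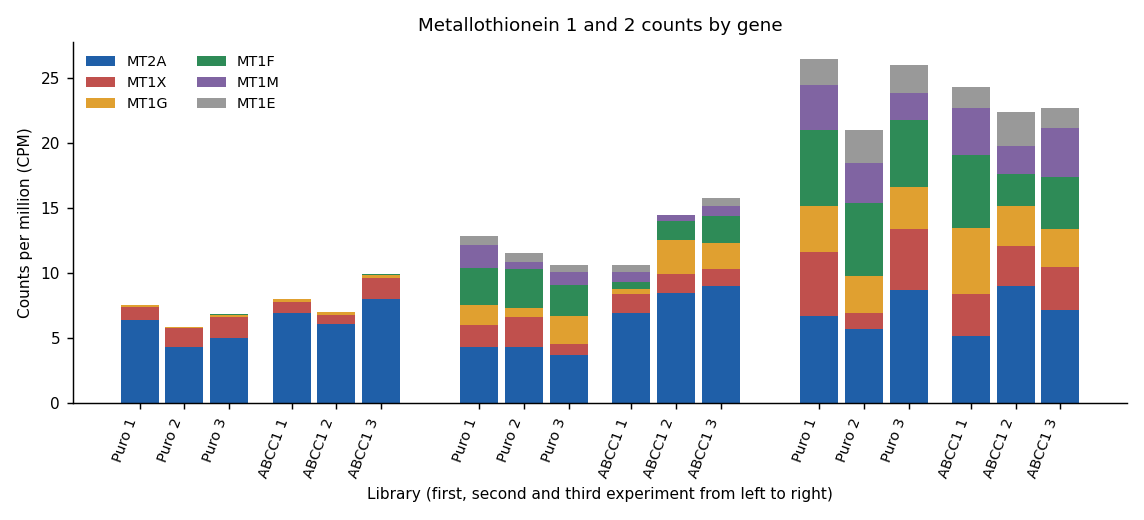
CPM of 6 metallothionein genes, stacked by gene, in each of the 18 libraries. In the first experiment MT2A makes up 72.9% to 86.7% of each bar, while in the third the other 5 genes make up most of it, and background would give 38.9% to 54.1% of the summed counts there.

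The other zinc exporters were not called with SLC30A1. None of the other 9 genes of the ZnT family, which move zinc out of the cytoplasm into organelles, vesicles or the medium, was called higher by edgeR in any experiment. In the first experiment 7 of them were tested and 2 were called, both lower. SLC30A10, a plasma membrane exporter of manganese, was at 1.52 CPM in Puro and 0.811 in ABCC1 (log2 fold change -1.02 ± 0.25 SE, edgeR adjusted p = 0.00895). SLC30A9, a mitochondrial zinc transporter, was at 173 and 151 CPM (log2 fold change -0.20 ± 0.05 SE, edgeR adjusted p = 0.0118). These calls held in 11 and 10 of 12 alternatives, and that of SLC30A9 was lost without Puro replicate 3 (-0.18, adjusted p = 0.0576). All 9 were tested in the second and the third experiment and edgeR called 0, while 4 and 2 had an unadjusted p under 0.05 and DESeq2 called 1 and 0. The nearest to SLC30A1 in size was SLC30A4, at 0.64 and 0.43 on the log2 scale with edgeR adjusted p of 0.0940 and 0.242. The median log2 fold change of the list was -0.06, -0.03 and -0.09.

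Among the 14 ZIP genes, which bring zinc into the cytoplasm, 11 were tested in the first experiment, and 5 were called higher and 0 lower. SLC39A13, a transporter of the secretory pathway, was at 15.6 CPM in Puro and 21.01 in ABCC1 (log2 fold change 0.44, edgeR adjusted p = 0.0112). SLC39A8, which carries zinc and manganese at the plasma membrane, was at 25.5 and 31.1 CPM (0.28, adjusted p = 0.00413), and SLC39A11 was at 29.1 and 35.0 CPM (0.26, adjusted p = 0.00247). Each of these calls held in 11 of 12 alternatives, and that of SLC39A13 was lost without Puro replicate 2 (0.41, edgeR adjusted p = 0.0519). All 14 were tested in the second and the third experiment, where edgeR called 0, while 6 and 3 had an unadjusted p under 0.05 and DESeq2 called 1 and 3. There the same 3 genes had log2 fold changes of 0.45 and 0.51 (SLC39A13), 0.42 and -0.09 (SLC39A8), and 0.56 and -0.05 (SLC39A11).

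**Figure D5:**
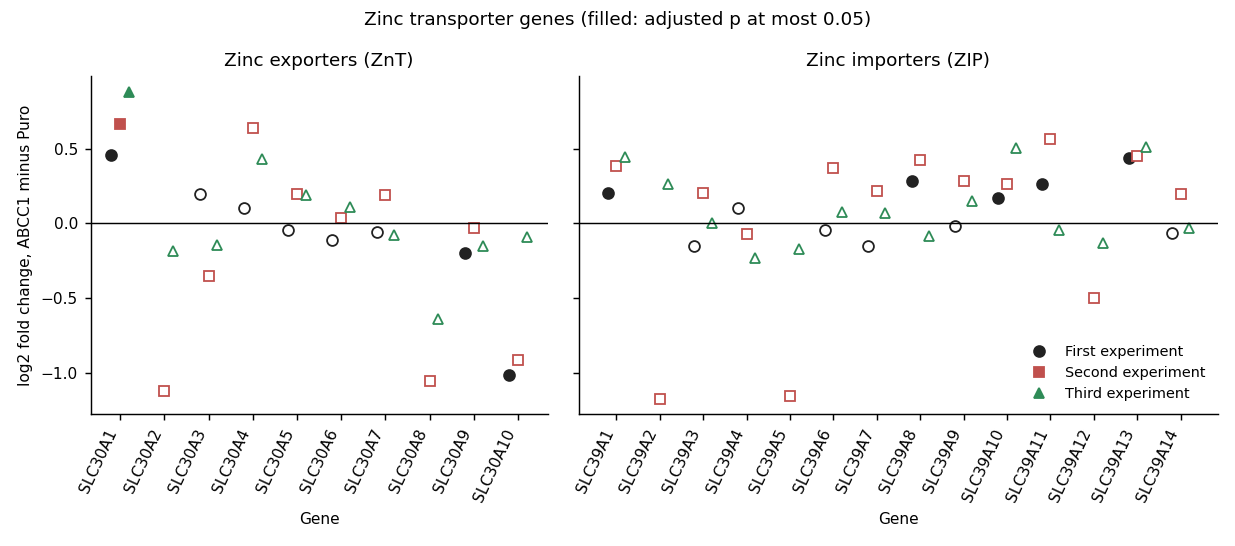
The log2 fold change of ABCC1 against Puro for the zinc exporter genes, SLC30A1 included, and the zinc importer genes, by experiment; filled symbols mark an adjusted p of at most 0.05. SLC30A1 is filled in all 3 experiments, and the only other filled symbols are those of 2 exporters below 0 and 5 importers above 0 in the first experiment.

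Of 8 other genes linked to MTF1, 6 were tested in the first experiment, and 3 were called higher and 1 lower. NDRG1, a stress gene also known from hypoxia, was at 27.3 CPM in Puro and 46.4 in ABCC1 (log2 fold change 0.77 ± 0.08 SE, edgeR adjusted p = 5.22e-05). GCLC, the catalytic subunit of the first enzyme of glutathione synthesis, was at 47.9 and 56.7 CPM (0.24, adjusted p = 0.0129), a call lost without Puro replicate 2 (0.21, adjusted p = 0.0583) or ABCC1 replicate 1 (0.18, adjusted p = 0.0507). CSRP1, a LIM domain protein of the cytoskeleton, was at 34.9 and 24.1 CPM (-0.53, adjusted p = 4.09e-05). SLC39A10, a zinc importer that MTF1 is known to repress, was called higher (0.17, adjusted p = 0.0103). Of the 8, edgeR called 0 in the second and the third experiment, with 2 and 3 at an unadjusted p under 0.05 and 0 and 1 called by DESeq2, and NDRG1 was at -0.15 and 0.18. GCLC was at 0.08 and -0.01 there, and SLC39A10 at 0.27 and 0.50 (edgeR adjusted p = 0.392 and 0.0864). CSRP1 was at -0.56 and -0.22 (edgeR adjusted p = 0.0674 and 0.553), with every ABCC1 library below every Puro library in all 3 experiments.

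Metal and oxidant stress genes share inducers with the metallothioneins. In the first experiment 4 of 10 were called higher and 1 lower, among them the chaperone gene DNAJB1 (81.2 CPM in Puro and 106 in ABCC1, log2 fold change 0.38, edgeR adjusted p = 0.000408) and the co-chaperone gene BAG3 (98.4 and 71.3 CPM, -0.46, adjusted p = 9.01e-05). GCLM, the modifier subunit of the GCLC enzyme, was called higher at 0.20 (adjusted p = 0.0230), a call that held in 6 of 12 alternatives and was lost without replicate 1 or 2 of either line (0.17 to 0.19). HMOX1, the heme oxygenase that cadmium and oxidants induce, was at 3.33 and 3.70 CPM and was called in no experiment. In the second experiment edgeR called 0 of the 10, with 4 at an unadjusted p under 0.05 and 1 called by DESeq2, and in the third it called 1, DNAJB1, at 34.0 and 66.5 CPM (log2 fold change 0.96 ± 0.17 SE, edgeR adjusted p = 3.94e-05). With the background as a covariate it was 0.44 and was not called (adjusted p = 0.583). BAG3 went the other way in the repeats, uncalled, at 0.37 in the second (95% interval 0.02 to 0.72, edgeR adjusted p = 0.214) and 0.37 in the third (0.04 to 0.69, adjusted p = 0.243).

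Glucocorticoids also induce MT2A, and their target genes moved in both directions. Of 10 such genes, 9 were tested in the first experiment, and 3 were called higher and 4 lower. All 10 were tested in the others, with 1 called higher and 0 lower in the second, and 1 higher and 1 lower in the third. In the second and the third 6 and 5 of them had an unadjusted edgeR p under 0.05, and DESeq2 called 2 and 2. Over all genes tested, the share called in either direction was 37.6%, 1.70% and 2.80% in the 3 experiments, which also stands beside the counts of the other lists. PER1, a circadian clock gene, was called higher in all 3 experiments, from 23.0 to 32.0 CPM, from 10.5 to 18.1 and from 22.4 to 33.3, with log2 fold changes of 0.48, 0.78 and 0.57 (edgeR adjusted p = 0.000602, 0.0321 and 0.0327). Its call held in 12 of 12, 9 of 13 and 8 of 13 alternatives. It was lost with the background as a covariate in the second (0.80, adjusted p = 0.499) and the third (0.51, adjusted p = 0.522). Leaving out Puro replicate 2 (0.83) or 3 (0.64) or ABCC1 replicate 2 (0.71) in the second, or Puro replicate 1 (0.66) or 3 (0.51) or ABCC1 replicate 2 (0.56) or 3 (0.58) in the third, also ended it. KLF9, a transcription factor gene, was called lower in the first and the third at -0.91 and -0.59 (adjusted p = 6.23e-07 and 0.0261). The call in the third held in 4 of 13 alternatives and was lost on leaving out any library but Puro replicate 2, with log2 fold changes of -0.66 to -0.50. CRISPLD2 was called lower in the first experiment at -3.95 (adjusted p = 3.61e-07). FKBP5, one of the most used readouts of the glucocorticoid receptor, was called lower in the first experiment, at 179 CPM in Puro and 159 in ABCC1 (adjusted p = 0.0336). It did not keep this direction, with log2 fold changes of 0.15 and -0.06 in the second and the third (edgeR adjusted p = 0.618 and 0.921).

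The genes most like MT2A across libraries were sought among the 9054 genes that averaged 10 CPM or more in each experiment, after the mean of each experiment was removed. They were GCAT (Pearson r = 0.892), ING1 (0.858), IGSF8 (0.840), CAPN10 (0.830) and PIAS3 (0.828), each over 18 libraries. These r describe the libraries only, which share depth, background and the difference between the lines. SLC30A1, MTF1 and the zinc transporters were not among the 5.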

How the data were processed

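RNA of 18 cultures was sequenced. The authors aligned the reads with STAR v2.7.3a and counted read pairs on exons per Ensembl gene with featureCounts v2.0.0 (Ensembl release 74 on GRCh37 with the vector sequences added, per the file headers). The deposited values are raw counts, with no normalization. Strand was not used, and pairs on several genes or places were not counted. The labels name a total RNA kit in one field and an mRNA kit in another for the first experiment, and the mRNA kit, which the paper names, was used. The labels number the experiments, and the order of cryopreserved and newly transfected cells follows the paper. DESeq2 was used by the authors and is an alternative here.

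The 92 spike-in controls and 6 vector sequences, 0.354% to 1.32% of the counts of a library, were left out of library sizes and tests. Of 57905 gene IDs, 51996 had a symbol, and 102 of 104 list symbols matched. ABCC1 and Puro were compared within each experiment with edgeR v4.0.16 (R v4.3.3; TMM, filterByExpr with a minimum count of 10, robust quasi-likelihood test), and between experiments by the interaction in a joint fit of 18 libraries. The scripts were tested on simulated counts. Intervals of the fits are 95% intervals. Correlations used log2(CPM + 0.5). The precision follows the depth of 8866994 to 57937653 assigned pairs and the spread between replicates (biological coefficient of variation 5.67%, 35.3% and 19.7%). A count of 0 was read against a floor of 3 counts, and this covers counting error only, because the reads carry no molecular identifiers. Libraries of a group, taken by pairs, differed by more than sampling noise (chi-square per degree of freedom 1.53 to 25.8), so all were kept as separate. GENCODE 29 (GRCh38) gave exon words, biotypes and the transcript starts that limit the printed promoters, and RefSeq gave promoters on GRCh38.p14. Positions of genes are those of the count files.

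The members and lists were chosen with earlier results of these data known. Beyond the members, the text names at most 3 called genes per list and experiment, the largest by log2 fold change among genes with a mean of at least 1 CPM, the other metallothioneins, and the 5 genes most like MT2A. Named outside this rule, after their values were seen, were SLC30A4, SLC39A10, SLC31A1, HMOX1, FKBP5, CHGA, HAND2 and SOX10. Some genes of the marker lists are not reported here. Lists were described by counts and medians, with no set test. The alternatives were DESeq2 v1.42.0, RLE size factors, other filters, a replicate block, each library left out, a spread from all 18 libraries, the olfactory receptor background as a covariate, and, chosen after seeing the data, that background subtracted.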

Additional observations from a re-analysis of the deposited data

Results flagged for a closer look

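The effect of the line differed between the experiments for 3 named genes, by the edgeR test of the interaction of line and experiment over all 18 libraries. For CRISPLD2 the adjusted p was 7.41e-08, with log2 fold changes of -3.95, -0.98 and -0.09 in the 3 experiments in order. For COL1A1, a collagen gene counted among the mesenchymal markers, it was 0.00379, with 0.83, -0.83 and -0.47. For NDRG1 it was 0.0338, with 0.77, -0.15 and 0.18. The levels of COL1A1 in Puro were 0.779, 15.1 and 36.9 CPM and those of CRISPLD2 4.06, 3.45 and 6.54 CPM, while the olfactory receptor background rose from 0.00514 to 0.584 and 1.58 CPM per kb. The part of the background in these differences was not tested.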

How the results depend on the processing

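SLC30A1 kept its direction in every alternative fit of the 3 experiments and its call in 12 of 12, 5 of 13 and 12 of 13, and MT2A was higher in every fit of the first and second. MTF1, MT1E, MT1F, MT1G, MT1M and MT3 were called under none, and MT1X under 1. The metallothioneins other than MT2A had at most 90 counts per library, which limits the precision of their ratios. The cause of the moves was not tested.

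Genes called numbered 1528 (main 6382) with the spread of all 18 libraries in the first experiment. In the second (main 581) they were 1086 with RLE, 1402 with no filter, 2556 with DESeq2, 4919 with the spread of all libraries, 12 with the background covariate and 5 to 1258 with a library left out. In the third (main 1021) they were 1726 with at least 10 counts per library, 1561 with DESeq2, 133 with the covariate and 393 to 2770 with a library left out, and calls higher in ABCC1 were 72.6% of all, against 82.9% with RLE. In the second that share was 73.1%, and 44.4% with at least 10 counts per library. The interaction was called for 550 genes, 363 with at least 10 counts per library and 900 with DESeq2. Members called were 1 in the first with at least 10 counts per library or the spread of all libraries, and 1 to 2 with a library left out. They were 2 in the second with RLE, no filter, DESeq2 or the spread of all libraries, 0 with the covariate and 0 to 1 with a library left out, and 0 in the third with the covariate.

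MT2A lost its call in the first experiment with at least 10 counts per library (0.41, edgeR adjusted p = 0.0563) and with the spread of all libraries (0.52, adjusted p = 0.277). In the second it passed with RLE (1.07), no filter (1.02), DESeq2 (1.07) and the spread of all libraries (0.98). SLC30A1 lost its call with the covariate in the second (0.62) and the third (0.37). Uncalled values that turned sign were MT3 in the second, 0.081 (RLE), 0.028 (no filter), 0.082 (DESeq2) and 0.38 (covariate), and in the third 0.053 (RLE), 0.0062 (no filter), 0.022 (at least 10 counts), 0.054 (DESeq2), 0.076 (spread of all libraries) and 0.49 (covariate). MTF1 in the third turned to 0.035 (RLE), 0.0062 (at least 10 counts), 0.035 (DESeq2) and 0.054 (spread of all libraries). With the covariate MT1F, MT1X and MT2A in the third turned to 0.12, 0.54 and -0.33. With the background subtracted from the level per kb, an alternative chosen after seeing the data and with no test, MT1E and MT1X turned to 1.498 and 0.71 in the second and 0.15 and 0.27 in the third, and MTF1 was at 0.54 in the second and turned to 0.24 in the third.

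With a library left out, log2 fold changes in the first experiment ranged from -0.71 to -0.11 for MT1X and 0.30 to 0.60 for MT2A. In the second they ranged from -0.30 to 0.64 for MT1G, -0.45 to 0.21 for MT1X, 0.90 to 1.08 for MT2A, -0.48 to 0.34 for MT3 and 0.58 to 0.81 for SLC30A1. In the third they ranged from -0.048 to 0.35 for MT1G, -0.014 to 0.36 for MT1M, -0.57 to 0.15 for MT1X, -0.18 to 0.25 for MT2A, -0.12 to 0.23 for MT3 and -0.027 to 0.020 for MTF1.

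Replicate numbers were not shown to pair the samples: deviations of same-numbered samples correlated at -0.44 to 0.02, -0.11 to 0.10 and -0.18 to 0.36. With the replicate block, members called in the second experiment were 0, SLC30A1 there was at 0.68 (edgeR adjusted p = 0.0540), MT1G there turned to -0.062, genes called in the third were 1885, and MT3 there turned to 0.0035.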

Other observations

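Copper is the other metal that metallothioneins hold, and a few genes of copper handling were called in the first experiment. Of 10 tested there, 0 were called higher and 3 lower. COX17, a copper chaperone for cytochrome c oxidase, was at 14.5 CPM in Puro and 12.0 in ABCC1 (log2 fold change -0.28, edgeR adjusted p = 0.0153). COX11, an assembly factor of the same enzyme, was at 40.7 and 36.1 CPM (-0.18, adjusted p = 0.0273), and ATP7A, the copper exporter, at 62.5 and 55.5 CPM (-0.17, adjusted p = 0.0160). The calls of COX17, COX11 and ATP7A held in 9, 4 and 9 of 12 alternatives. That of COX11 was lost on leaving out any library but ABCC1 replicate 3 (-0.19 to -0.15) and was at -0.072 with the spread of all 18 libraries, that of COX17 without replicate 1 of Puro (-0.22) or ABCC1 (-0.23), and that of ATP7A without Puro replicate 1 or 3 (-0.17 in both). All 10 were tested in the other experiments, where edgeR and DESeq2 called 0, with 1 at an unadjusted p under 0.05 in each. In the second this was ATP7A, at 0.42 (95% interval 0.08 to 0.77, edgeR adjusted p = 0.154), the other way from the first. Every ABCC1 library was above every Puro library there, and in the third ATP7A was at 0.02. The importer SLC31A1 was at 72.5 and 73.3 CPM in the first experiment.

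Adrenergic neuroblastoma markers were called in both directions. In the first experiment 2 of 10 were called higher and 6 lower, among them DBH (386 CPM in Puro and 218 in ABCC1, log2 fold change -0.83, edgeR adjusted p = 1.86e-05) and ISL1 (135 and 91.3 CPM, -0.56, adjusted p = 1.90e-06). In the second edgeR called 0, with 5 at an unadjusted p under 0.05 and 3 called by DESeq2. In the third 1 was called higher, TH, the first enzyme of catecholamine synthesis (30.5 and 47.1 CPM, 0.63, adjusted p = 0.0137), and 2 lower, PHOX2A (-0.68, adjusted p = 0.0327) and DBH (-0.63, adjusted p = 0.0454). In the third the calls of TH, PHOX2A and DBH held in 8, 6 and 4 of 13 alternatives, and their log2 fold changes ranged from 0.54 to 0.78, -1.14 to -0.42 and -0.97 to -0.33. Leaving out Puro replicate 3 or ABCC1 replicate 2 or 3 ended each of the 3 calls. Those of PHOX2A and DBH were also lost without ABCC1 replicate 1, those of TH and PHOX2A without Puro replicate 1, and that of DBH without Puro replicate 2 (-0.33).

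Of 8 mesenchymal markers, 7 were tested in the first experiment, and 4 were called higher and 2 lower. SNAI2 was at 6.08 and 11.7 CPM (0.94, edgeR adjusted p = 8.13e-06), FN1 at 13.1 and 7.07 CPM (-0.89, adjusted p = 2.04e-05) and COL1A1 at 0.779 and 1.34 CPM (0.83, adjusted p = 0.0301). The COL1A1 call was lost without any 1 Puro library (0.72 to 0.92) or without ABCC1 replicate 3 (0.52). NOTCH2 alone was called in the second (23.0 and 38.9 CPM, 0.75, adjusted p = 0.0200), a call lost with the covariate (0.56) and without Puro replicate 3 (0.71) or ABCC1 replicate 1 (0.68) or 2 (0.75), and edgeR and DESeq2 called 0 of 8 in the third, with 2 at an unadjusted p under 0.05. None of the 8 Schwann or glial markers was called in any experiment by edgeR or DESeq2, with 0, 2 and 0 at an unadjusted edgeR p under 0.05, 4 being tested in the first and all 8 in the others.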
